A study of Mus musculus with 384 samples.

Results

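The T lineage genes of this panel are the receptor Notch1, the transcription factors Gata3, TCF and Lef1, and the T cell surface antigens CD90.2, Cd5, Cd2, Cd3e, Cd4 and Cd8a. They are 10 of the 96 TaqMan assays and were taken by name, as the assays that read a regulator or an antigen of the T lineage. Each was measured in single common lymphoid progenitors (CLPs), progenitors of the bone marrow from which B cells, T cells and the natural killer and innate lymphoid cells derive. The cells came from wild-type C57/Bl6 mice and were sorted as negative for lineage markers and B220, positive for Flt3 and Il7r, and low for Kit and Sca1. The 4 plates, P0 to P3, held 360 single-cell wells, 16 wells that received no reverse transcriptase (no-RT), 4 wells of 10 pooled cells and 4 of 20, all of this strain, genotype and gate. The labels do not say that the plates came from separate animals, so p-values here measure how plates vary, and that variation may be technical.

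In the thymus, Notch1 signalling in an incoming progenitor turns on TCF-1 (the product of Tcf7) and Gata3, which open the T cell programme. Lef1 is a relative of TCF-1, and B lineage progenitors use it too. Thy1 (CD90), Cd5 and Cd2 appear on early thymocytes, and Cd3e, Cd4 and Cd8a belong to the T cell receptor complex and its co-receptors. Gata3 and TCF-1 also serve in progenitors of innate lymphoid cells, and Cd4 is also found on some dendritic cells, so these genes are not exclusive to T cells.

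A value is the amplification cycle at which a product appeared (Ct). A product was counted where Ct lay below 28. Levels are 28 minus Ct; a step of 1 unit is 1 cycle, or a doubling of cDNA. Levels are read within an assay and not between assays. Quality control kept 86 cells of P0 and 87 of each other plate, with 22 to 54 assays detected per cell, and the plate was the replicate (n = 4). The no-RT wells had 1 to 9 assays with a product, and the 10-cell well of P0 had 29, against 68 to 71 in the other 10-cell wells. Of 4 panel genes listed as CLP markers, only Kit belongs to the gate. Kit was detected in 97.4% ± 1.1 and Ikzf1 in 99.7% ± 0.57 of cells (SD, n = 4). Notch1 was in 98.3% ± 0.66 and Ly6d in 70.3% ± 4.6. Of the 10 assay names, 8 matched a gene symbol. TCF and CD90.2 matched none, so the gene that the TCF assay reads is not settled by its name. A separate assay named TCF3E2A is on the panel and is no member.

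Notch1 was the member that nearly every cell had. It was detected in all but 6 of the passing cells, at plate medians of 13.15 on P0, 12.95 on P1, 12.50 on P2 and 12.67 on P3. These medians lay within 1 cycle of each other, and the middle of the distribution was narrow, with quartiles at 12.08 and 13.42. The 6 cells without a Notch1 product yielded fewer assays than most, 22 to 39 each against a median of 43 over all cells. Of these cells, 5 had none of the B lineage genes Ebf1, Ly6d and Pax5, and the part that yield plays was not tested. Across cells, the Notch1 level went most with that of CD45RA, an assay named for an isoform of the pan-leukocyte antigen, with a mean Spearman correlation within plates of 0.48 ± 0.10 over 85 to 86 cells per plate, and then with Selplg, the selectin ligand PSGL-1 (0.41 ± 0.17). The lowest values were with FOX01 (-0.12 ± 0.15), Ebf1 (-0.03 ± 0.08) and Ly6d (-0.01 ± 0.08), against a median of 0.28 over 39 assays. All levels of a cell share its cDNA yield. Relative to the reference genes the correlation with CD45RA was 0.59 ± 0.03 and those with FOX01, Ebf1 and Ly6d were 0.03, 0.02 and 0.09.

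The transcription factors were found in a minority of cells. Gata3 had a product in 16.3% of cells on P0, 11.5% on P1, 16.1% on P2 and 12.6% on P3, 49 cells in all. TCF was rarer, at 8.14%, 6.90%, 3.45% and 8.05% on the same plates, 23 cells in all. Lef1 was found in 4 cells of P0 and 2 of P1, and in no cell of P2 or P3. In cells that had it, Gata3 was not a trace signal, with a median level of 12.55 and quartiles of 12.04 and 13.25. The exception was a set of 5 cells at 8.00 or lower, 4 of them on P0, which a gap of 3.01 cycles separated from the other 44. The 6 Lef1 cells had levels of 12.08 to 14.87. TCF levels ran from 3.81 to 16.50, with an SD over cells of 3.39 cycles, the widest of the 6 members found in over 5% of cells (1.03 to 2.44 for the other 5).

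Among the surface antigens, CD90.2, the Thy1 allele of this strain, was the most often detected. It had a product in 26.7% of cells on P0, 18.4% on P1, 27.6% on P2 and 18.4% on P3, 79 cells in all, so P0 and P2 lay above P1 and P3. Cells with CD90.2 also had more cDNA. Their reference genes were 0.85 ± 0.18 cycles higher than in cells without it, and they had 2.44 ± 1.27 more of the other assays (differences within plates, SD, n = 4). Whether this yield sets the CD90.2 share was not tested. For Gata3, TCF, Cd5 and Cd4 the difference in the number of other assays was smaller than its SD over plates.

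Cd4, the co-receptor of helper T cells, was detected in 5.81% of cells on P0, 13.8% on P1, 12.6% on P2 and 11.5% on P3, 38 cells in all, with P0 the lowest. Cd5, an inhibitory receptor of T and some B cells, was detected in 4.65%, 10.3%, 18.4% and 5.75%, 34 cells in all. Its shares differed most between plates relative to their mean among the members found in over 5% of cells, with P2 the highest. Cd8a, the co-receptor of cytotoxic T cells, had a product in 1 cell of P1 and 1 cell of P3, at levels of 11.50 and 11.04. Cd3e, a signalling chain of the T cell receptor complex, and the adhesion receptor Cd2 were found in 0 passing cells, for which 3 counts set an upper limit of 0.865% (counting error only). As these 2 assays gave no product in any other well of the series either, the files hold no well in which they are seen to work. Of the 6 antigens in a list of mature T cell markers, Cd3e and Cd2 were thus at 0 and Cd8a in 2 cells, while Cd5, Cd4 and CD90.2 were found in 9.78% ± 6.2, 10.9% ± 3.5 and 22.8% ± 5.1 of cells.

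**Figure D1:**
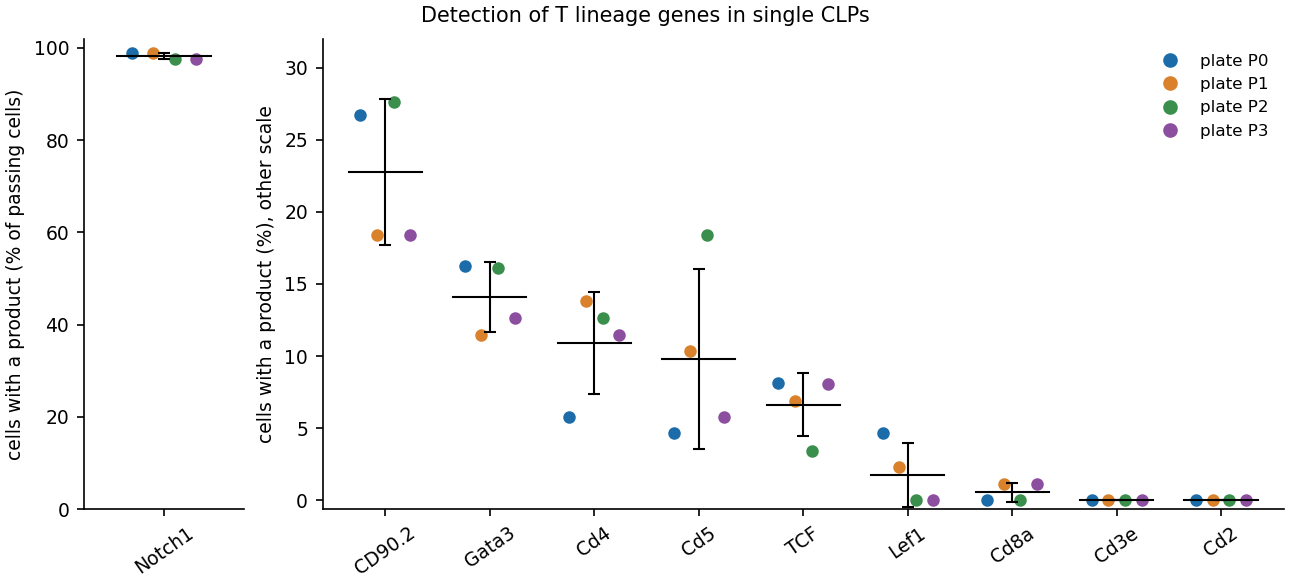
Share of passing cells with a product (percent) for each T lineage gene. Points are plates, horizontal lines the mean and bars the SD over 4 plates; Notch1 has its own axis from 0 to 100%. Notch1 was in nearly all cells, CD90.2 in 18.4% to 27.6% per plate, and Cd3e and Cd2 in none.

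All 10 members had a product in 0 of 16 no-RT wells. By limma on the share per plate, 6 of the 8 members with any product were detected more often in cells than in no-RT wells, where 84.1% of the 88 assays tested were called in that direction. These were Notch1 (adjusted p = 3.48e-11), Gata3 (2.3e-07), CD90.2 (1.34e-06), Cd4 (1.75e-05), TCF (1.97e-05) and Cd5 (5.57e-04). Lef1 (adjusted p = 0.137) and Cd8a (0.130), with 6 cells and 2 cells, were not called. With 16 wells, 0 products allow a background share of up to 20.6% (exact 95% limit). Only Notch1 among the members lay above that limit on every plate, as did 47 of the 96 assays.

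The products in single cells came early. Among all member products in passing cells, 1 had a Ct of 25 or later, a Notch1 product. Median levels per plate were 11.26, 11.02, 11.45 and 10.61 for CD90.2, and 11.19, 11.51, 10.78 and 11.30 for Cd4 (P0 to P3), each within 1 cycle. For Cd5 they were 10.79, 10.73, 10.53 and 9.14, with P3 below the others.

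The pooled wells gave a further reading of the same genes. Notch1 was found in all 8 pooled wells. CD90.2 had a product in 3 of 4 10-cell wells and 4 of 4 20-cell wells, where the single-cell shares of the plates give 3.65 and 3.96 wells. The matching counts were 3 and 4 wells for Cd4 (2.67 and 3.49 from the shares), 2 and 4 for Gata3 (3.10 and 3.79), 2 and 2 for Cd5 (2.36 and 3.18) and 1 and 3 for TCF (1.95 and 2.89). Lef1, Cd8a, Cd3e and Cd2 had none. Of the T lineage genes, the 10-cell well of P0 held only Notch1, at a level of 0.0393, and this well had few assays in general.

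**Figure D2:**
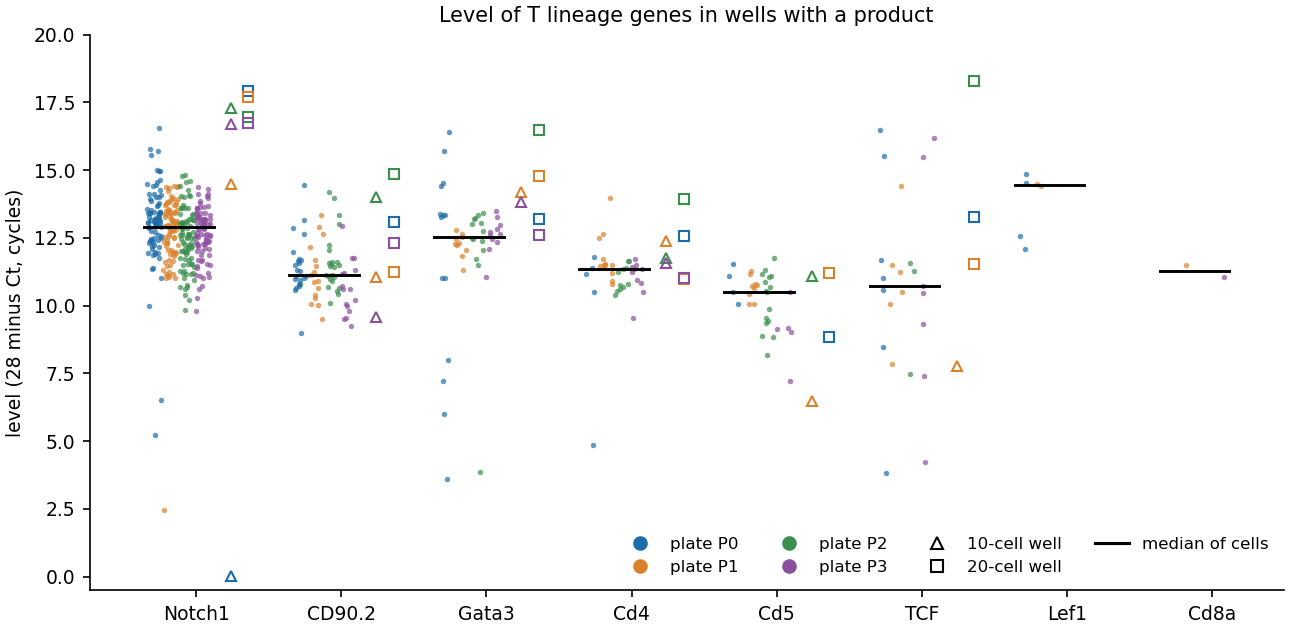
Level (28 minus Ct, in cycles) of each T lineage gene in every well with a product. Dots are single cells coloured by plate, black lines their median, triangles 10-cell wells and squares 20-cell wells; TCF and Gata3 reach their highest pooled value in the 20-cell well of P2, at 18.28 and 16.47.

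Most cells that had a T lineage gene other than Notch1 had 1 of them. Leaving Notch1 out, 48.7% of cells had no member and 38.9% had 1, while 34 cells had 2, 8 had 3 and 1 had 4. If the genes were placed independently within each plate, 48.6% and 38.2% of cells would have 0 and 1, and 39.8, 5.75 and 0.41 cells would have 2, 3 and 4. The share of cells with at least 1 was 50.0% on P0, 55.2% on P1, 56.3% on P2 and 43.7% on P3 (51.3% ± 5.8), and with at least 2 it was 12.4% ± 4.2. Cd4 was the only one of the 9 genes in 26 of its 38 cells (68.4%), CD90.2 in 60.8% of its cells, Cd5 in 58.8%, Gata3 in 53.1% and TCF in 43.5%. The most frequent combinations were Gata3 with CD90.2 (9 cells with no further member) and CD90.2 with Cd5 (7 cells). The cell with 4 members had Gata3, CD90.2, Cd5 and Cd4, and no cell had the 3 transcription factors together.

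Co-detection was measured as the log2 odds ratio of detection within each plate. Positive values (together) are read as a pair of genes sharing cells more often than independent detection would give, and negative values (apart) less often. For rare genes the reading can fail, as the pseudocount added to each count can make a value positive without an excess of shared cells. Cd4 with Cd5 had 0.65 on P0, where 0 cells had both. The mean of that pair was 0.24, from 4 cells with both where 4.07 would be expected. The 5 members in 5% to 95% of cells (Gata3, TCF, CD90.2, Cd5 and Cd4) made 10 pairs, of which limma called 0, and 0 had an unadjusted p under 0.05. Over all 1176 gene pairs of the panel, 4.59% were called (2.98% together, 1.62% apart). The median of the 10 pairs was 0.65, against 0.11 over the panel, and 0 of the 10 had the same sign on all 4 plates. The part of the pseudocount in that median was not tested, so the median does not by itself show excess sharing. TCF with Cd5 had the highest mean, 1.07 ± 1.42 (adjusted p = 0.355, limma), from 3 cells with both. It passed the threshold with a pseudocount of 1 (1.47, adjusted p = 0.0349) and with cells split by their number of assays (1.72, adjusted p = 0.0188), and its mean fell to 0.42 without P2 (adjusted p = 0.787). Gata3 with Cd4 had 0.75 ± 1.88 (adjusted p = 0.627, limma), from 8 cells. The lowest was Cd4 with CD90.2 at -1.12 ± 1.58 (adjusted p = 0.358, limma). That pair shared 0 cells on P0 and P1, 3 on P2 and 2 on P3, so the plates disagreed.

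**Figure D3:**
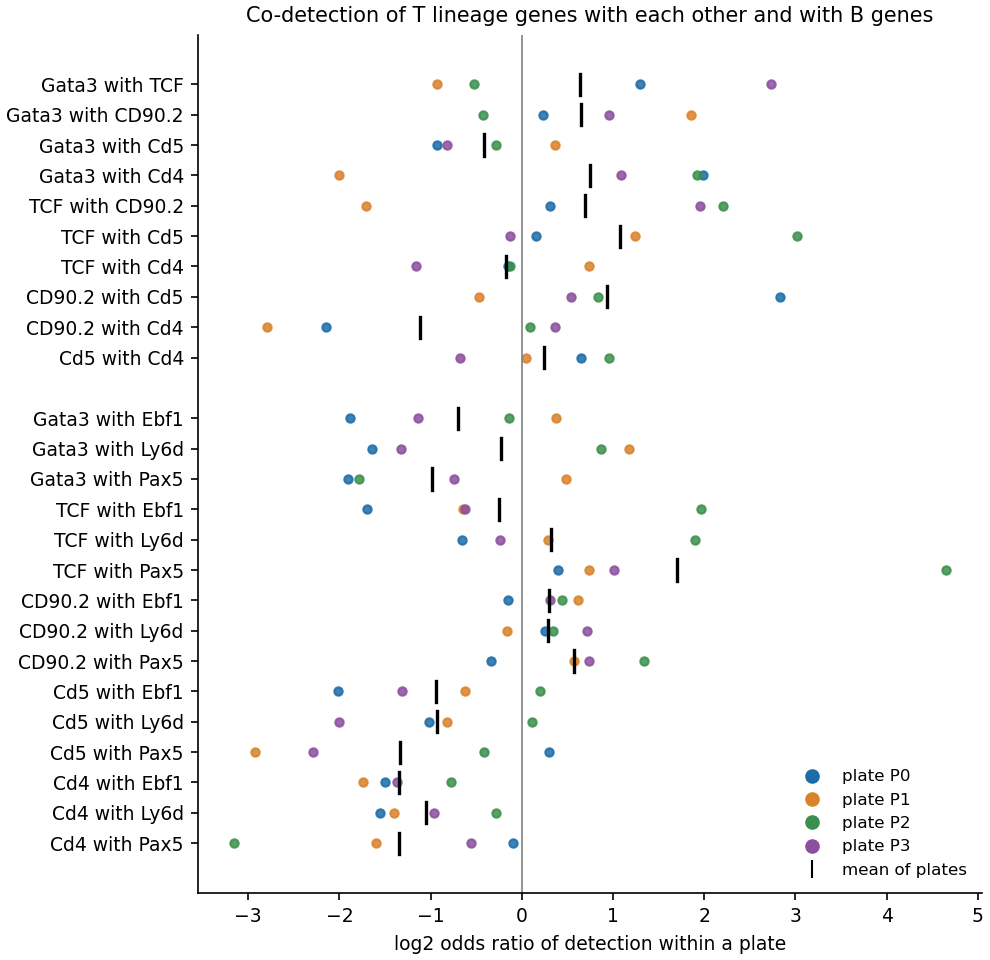
Log2 odds ratio of detection within a plate for the 10 pairs of T lineage genes (top) and their 15 pairs with the B lineage genes Ebf1, Ly6d and Pax5 (bottom). Points are plates and black ticks the mean of 4 plates; Cd4 lies below 0 with each B gene on every plate, while 0 of the 10 pairs among T lineage genes have the same sign on all 4 plates.

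Of the 230 panel pairs that hold a member, 1 was called (2.98% of all pairs were called together): TCF with Itgb7, the integrin chain that pairs with Itga4 to home cells to the gut. Both were found in 2 cells of P0, 1 of P1, 0 of P2 and 2 of P3, 5 cells in all where independent detection would give 1.79. The log2 odds ratios were 1.93, 3.12, 0.79 and 2.64 on P0 to P3, with a mean of 2.12 ± 1.01 (adjusted p = 0.0320, limma). The value on P2, which has no such cell, comes from the pseudocount of 0.5. The call was lost without P0 (2.18, adjusted p = 0.0697), P1 (1.79, adjusted p = 0.165) or P3 (1.95, adjusted p = 0.177) and held without P2 (2.56, adjusted p = 0.0260).

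The TCF level divided the TCF cells in the same way, a pattern seen after the values were known and given here without a test. In the 5 cells with Itgb7 the TCF level was 16.50, 16.20, 15.51, 15.50 and 14.43. In the 18 cells without Itgb7 it ran from 3.81 to 11.68, with a median of 10.50, so the sets did not overlap and their medians lay 5.02 cycles apart. All 5 cells with Itgb7 had none of Ebf1, Ly6d and Pax5. Of the 18 others, 10 had Pax5, 6 had Ebf1 and Ly6d without Pax5, 1 had Ebf1 or Ly6d only and 1 had none of the 3.

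The TCF and Itgb7 cells shared further genes, chosen for mention after their values were seen. Gata3 was found in 4 of the 5, at levels of 16.41, 15.72, 13.27 and 12.99, of which the first and second were the highest Gata3 levels of any cell. Il2rb, the receptor chain for interleukin 2 and 15 used by natural killer and innate lymphoid cells, was found in 4 of the 5. Among the other 57 cells without the 3 B genes, Gata3 was found in 9 and Il2rb in 2. Id2, an inhibitor of E proteins needed by innate lymphoid cells, was in 5 of 5 against 35 of 57, and the M-CSF receptor gene Csf1r in 0 of 5 against 30 of 57. Their Itga4 levels were 16.50 to 19.56, with a median of 18.75, against 15.40 (9.52 to 19.21) in those 57 cells. Cd4, Cd5 and Lef1 were in none of the 5, and CD90.2 in 1. The Notch1 levels of the 5 were 11.08 to 12.57, with a median of 12.24. In the 52 of those 57 cells with Notch1, the median was 13.07 and the range 5.23 to 15.72. The 5 cells yielded 39 to 46 assays each, near the median of 43. Itgb7, Il2rb, Id2, Itga4 and Csf1r had a product in 0 of 16 no-RT wells. A list of natural killer and innate lymphoid genes has 8 on the panel. Of these, Klrb1c, Nfil3 and Cd244a were not compared cell by cell for the TCF and Itgb7 cells, and Tbx21 was in 0 passing cells. Klrb1c was in 1 TCF cell of P0, 1 of P1, 3 of P2 and 0 of P3. The 2 TCF and Itgb7 cells of P3 thus lacked it, and P2 had no TCF cell with Itgb7.

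**Figure D4:**
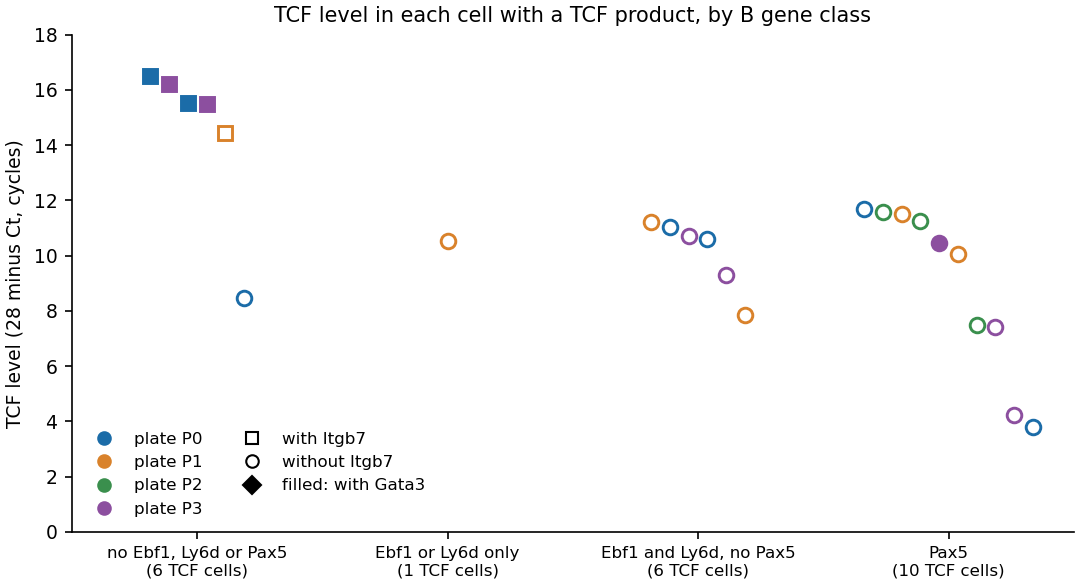
TCF level (28 minus Ct, in cycles) in each of the 23 cells with a TCF product, by which of the B genes the cell had. Squares have an Itgb7 product and filled symbols a Gata3 product; the 5 squares, at 14.43 to 16.50, all lie in the class without B genes and above every circle.

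The same genes were also read in the pooled wells, where products of different cells cannot be told apart. In the 20-cell well of P2, TCF was at 18.28, Gata3 at 16.47, Itgb7 at 11.72 and Il2rb at 16.09, each the highest among the 8 pooled wells, while Id2 was at 17.25, below the 17.29 of P3. The 20-cell wells of P0 and P1 also had all of these genes, with TCF at 13.26 and 11.53. Itgb7 had a product in all 8 pooled wells. In the 10-cell wells of P0, P2 and P3 it was at 1.64, 1.21 and 3.08, below its lowest single-cell level of 5.09. What gave these late products was not tested. On P2, 3 single cells had TCF, at 7.47 to 11.58, which would give a TCF level of 10.35 in 20 average cells. The 20-cell well of P2 was also the highest for CD90.2 (14.85) and Cd4 (13.92), while its Notch1 level lay within the range of the other 20-cell wells, 16.74 to 17.91. It had 78 assays with a product, against 71 to 75 in the other 20-cell wells. It had no Cd5 product, where the single-cell share of P2 gives a 98.3% chance of a cell with Cd5. It is 1 well, with no replicate on its plate.

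The T lineage genes were then read against the B lineage genes Ebf1 and Pax5, transcription factors of B cell specification and commitment, and Ly6d, a surface marker of B-biased CLPs. Of the 15 pairs of a member with a B gene, limma called 0, and 1 had a positive and 4 a negative value at an unadjusted p under 0.05. Their median was -0.70, against 0.11 over the panel. Cd4 was below 0 with all 3 B genes on every plate. With Ebf1 its log2 odds ratios were -1.50, -1.74, -0.77 and -1.37 on P0 to P3 (mean -1.35 ± 0.41, adjusted p = 0.111, limma), from 21 cells with both where 27.7 would be expected. With Ly6d the mean was -1.05 ± 0.57 and with Pax5 -1.35 ± 1.36. The Ebf1 value passed the threshold with a pseudocount of 1 (-1.35, adjusted p = 0.0369) and with cells split by their number of assays (-1.34, adjusted p = 0.0447) or by reference Ct (-1.33, adjusted p = 0.0454).

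The other members differed among themselves in sign. Cd5 had -0.94 ± 0.95 with Ebf1, -0.93 ± 0.87 with Ly6d and -1.33 ± 1.52 with Pax5, with P2 or P0 above 0. Gata3 had -0.70 ± 1.01, -0.23 ± 1.46 and -0.99 ± 1.11 with the same genes, with P1 positive throughout. CD90.2 had 0.30 ± 0.33, 0.29 ± 0.36 and 0.58 ± 0.69. TCF had -0.25 ± 1.56 with Ebf1, 0.32 ± 1.12 with Ly6d and 1.70 ± 1.98 with Pax5 (adjusted p = 0.205, limma). P2 raised the last, with 4.65 against 0.40 to 1.02 on the other plates. It passed the threshold with a pseudocount of 1 (1.55, adjusted p = 0.0457) and with cells split by reference Ct (1.59, adjusted p = 0.0464).

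By the likeness rule (same sign on all 4 plates), the assays found most with Gata3 were Itgb7 (1.39 ± 0.94, adjusted p = 0.148) and Cd34 (0.88 ± 0.34, adjusted p = 0.308), and the assay most apart from it was Gfra2, a GDNF family receptor (-1.59 ± 0.50, adjusted p = 0.0594). For CD90.2 the highest was FOX01 (1.88 ± 1.23, adjusted p = 0.0655), for Cd5 the TNF receptor gene Tnfrsf4 (2.12 ± 1.48, adjusted p = 0.0548) and then Itgb7 (1.56 ± 0.95, adjusted p = 0.103), and for Cd4 the M-CSF receptor Csf1r (1.70 ± 1.14, adjusted p = 0.0911) and Tnfrsf4 (1.61 ± 1.19, adjusted p = 0.115). None of these passed the threshold (limma). Gata3 with Itgb7, Cd5 with Itgb7 and Cd4 with Tnfrsf4 shared 0 cells on P1, so their sign on that plate comes from the added 0.5. TCF stood lowest with Hoxa9, a progenitor homeobox gene (-1.81 ± 1.55, adjusted p = 0.115).

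To see where each gene lay along the B programme, cells were placed in 4 classes by their B genes: 62 cells with none, 66 with Ebf1 or Ly6d only, 37.2% ± 2.9 of cells with both but no Pax5, and 90 cells with Pax5. The mean number of members per cell, Notch1 left out, was 0.83 ± 0.21 without B genes and 0.55 ± 0.19, 0.66 ± 0.16 and 0.64 ± 0.10 in the other classes, so all classes held them. The same cells had 39.2, 39.2, 39.3 and 38.5 other assays on average. The test compared cells with Pax5 and cells with none of the 3 genes on the same plate.

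Cd4 was detected less often in cells with Pax5. In cells without the B genes its share was 12.5% on P0, 27.3% on P1, 14.3% on P2 and 21.4% on P3 (18.9% ± 6.8), and in cells with Pax5 it was 4.55%, 4.55%, 0% and 8.00% (4.27% ± 3.3). The difference was -14.6 ± 6.1 percentage points (adjusted p = 0.0195, limma on the arcsine scale). Cd4 was the only 1 of 5 members called, where 30.8% of the 52 assays tested were called (13.5% higher and 17.3% lower with Pax5). The classes between them had 14.0% ± 8.0 and 10.3% ± 5.9. The call was lost without P1 (adjusted p = 0.0956) or P2 (adjusted p = 0.146), on untransformed shares (adjusted p = 0.0618) and against all cells without Pax5 (adjusted p = 0.0583). Csf1r, a myeloid and dendritic gene, was also among the 9 assays called lower. It was at 15.5% ± 2.0 with Pax5 and 47.9% ± 4.0 without the B genes (adjusted p = 0.00197, limma). Csf3r, a myeloid gene, differed more, at 16.7% ± 9.4 against 86.5% ± 6.3 (adjusted p = 1.09e-05, limma). Of 2 dendritic markers on the panel, Itgax was called lower (adjusted p = 0.0195, limma) and Bst2 was not (adjusted p = 0.512, limma). The part of any of these genes in the Cd4 difference was not tested.

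Gata3, Cd5, CD90.2 and TCF were not called. Gata3 was at 7.74% ± 4.2 with Pax5 and 20.6% ± 12.4 without the B genes (difference -12.8 ± 15.5 points, adjusted p = 0.118); on P0 the second share was 37.5%, above the 9.09% to 21.4% of the other plates. Cd5 was at 4.71% ± 6.7 and 12.5% ± 2.4 (difference -7.83 ± 5.9, adjusted p = 0.0746), and CD90.2 at 28.1% ± 9.9 and 20.8% ± 10.8 (difference 7.28 ± 10.7, adjusted p = 0.419). TCF had nearly equal shares at the ends, 11.1% ± 2.5 with Pax5 and 10.5% ± 8.1 without the B genes (adjusted p = 0.684), and lower values between them, 1.14% ± 2.3 with Ebf1 or Ly6d only and 4.51% ± 3.0 with both. The 5 cells with high TCF all lay in the class without B genes.

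**Figure D5:**
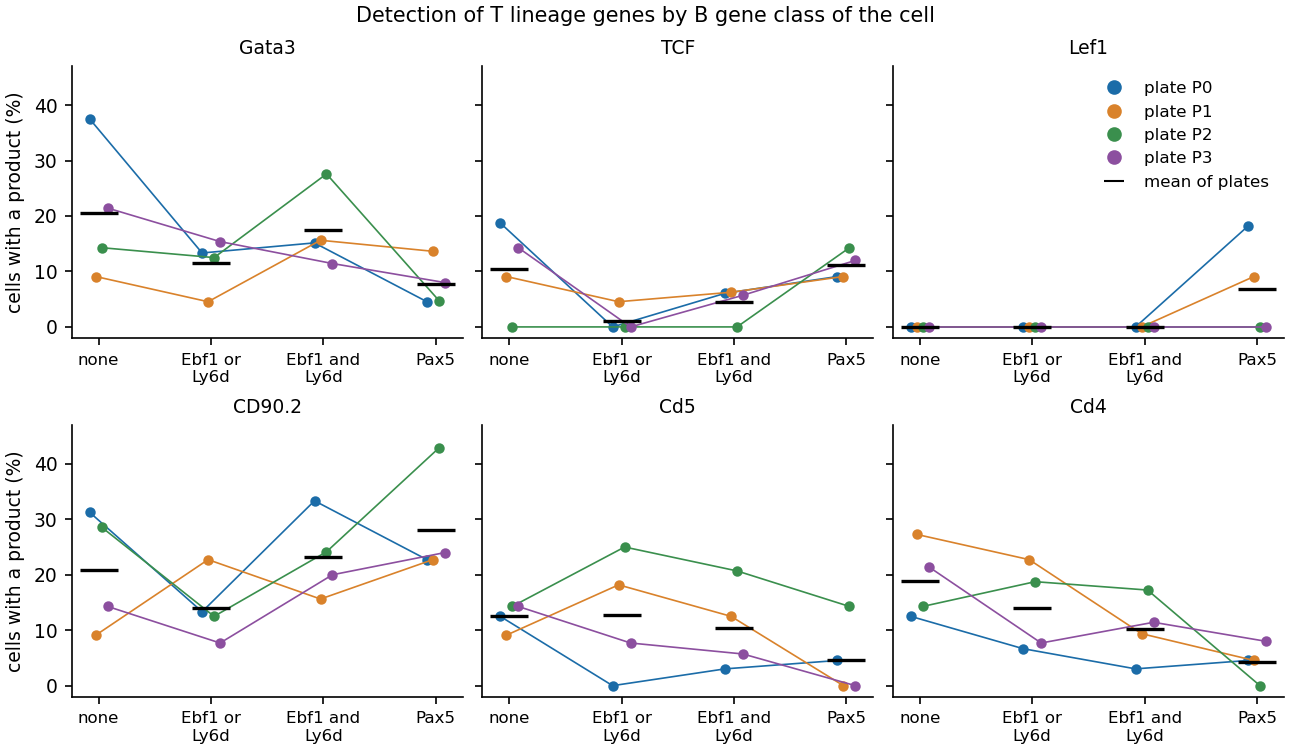
Share of cells with a product (percent) for 6 T lineage genes in the 4 B gene classes of cells. Lines join the values of a plate and black bars are means of 4 plates; Cd4 is lower in the Pax5 class than in the class with none on every plate, TCF is present at either end, and Lef1 appears in the Pax5 class of P0 and P1.

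Lef1 cells were all cells with Pax5. All 6 had Ebf1, Ly6d and Pax5, 5 had Gfra2 and 6 had FOX01, and none had Csf3r, the G-CSF receptor gene. Cd34 was in 3 of the 6. In the whole Pax5 class, FOX01 was in nearly all cells and Gfra2 in 67.8% ± 3.8. Csf3r was in 16.7% ± 9.4 of that class and Cd34 in 85.6% ± 7.8. The FOX01, Gfra2 and Csf3r counts thus set the Lef1 cells little apart from their class, while Cd34 was found less often. If Lef1 were placed independently of Pax5 on each plate, 1.53 of its 6 cells would have Pax5. Lef1 was in too few cells to enter the fits of pairs and of classes, so this is a count without a test, on P0 (4 cells) and P1 (2 cells). Of the other members, TCF was in 1 Lef1 cell and CD90.2 in 2.

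The Notch1 level was 12.77 ± 0.14 in cells without the B genes and 12.21 ± 0.40 in cells with Pax5. The difference was -0.052, -1.15, -0.79 and -0.28 cycles on P0 to P3, with a mean of -0.57 ± 0.49 (adjusted p = 0.226, limma), where 17.8% of the 45 assays tested were called (4.44% higher and 13.3% lower with Pax5). With medians in place of means it passed the threshold (-0.65, adjusted p = 0.0356), and relative to the reference genes it was -0.14 (adjusted p = 0.560). Notch1 was detected in every cell of the Pax5 class and in 91.8% ± 6.0 of cells without the B genes, the latter including the 5 cells named above. The other members had too few cells per class for this comparison.

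Of a list of 50 genes of the T lineage and the Notch pathway, 17 are on the panel, the 10 members among them. By limma, 11 of the 17 were detected more often in cells than in no-RT wells, against 84.1% of all assays tested. The 17 include Cd2 and Cd3e, which had no product in cells or no-RT wells and were not tested. The median share of cells over all 17 was 22.8%. Besides 6 members, those called were Bcl11a and Ikzf1, regulators of lymphoid progenitors, at 98.3% ± 1.5 and 99.7% ± 0.57, the transcriptional repressor Gfi1 at 74.1% ± 4.2, the chemokine receptor Ccr7 at 69.8% ± 4.7 and TCF3E2A at 35.7% ± 3.8. The chemokine receptor assays CDw199 and Cxcr4 had a product in 14 and 13 of 16 no-RT wells and were not called. Between cells with Pax5 and cells without the B genes, 10 genes of the list could be tested for detection, and 0 were called higher and 1 lower, which was Cd4, where 13.5% of all assays tested were higher and 17.3% lower. Of 8 tested for level, where 4.44% of all assays were higher and 13.3% lower, 0 were higher and 1 was lower with Pax5, CDw199 (-2.64 ± 1.54 cycles, adjusted p = 0.00728, limma), an assay whose no-RT wells also gave a product.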

How the data were processed

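Single-cell cDNA was pre-amplified in the well and read on a Fluidigm dynamic array, per the labels' protocols. The authors deposited Ct cycle numbers without normalization, per the labels. The software behind the Ct is not given in the sources used here. Of 36864 values, 58.2% were 40 (no product); the 22 from 28 to just under 40 held no member. Cells were kept if over 50% of 4 reference genes gave a product and the number of assays reached 50% of the plate median; 13 wells were left out. An assay among the reference genes had a product in all 16 no-RT wells, and leaving it out, an alternative added after seeing the data, kept the same cells. Names were matched to RefSeq symbols and synonyms (GRCm38.p6).

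All tests were made with limma 3.58.1 (R 4.3.3), the plate as unit, p-values adjusted by Benjamini-Hochberg over all assays or pairs, and a threshold of 0.05. Shares were compared after an arcsine square root transform. Pairs used genes detected in 5% to 95% of cells but under 4 no-RT wells, with 0.5 added to each count. Levels were compared where each class had at least 3 cells with a product on every plate. The scripts were tested on simulated data. Members and lists were chosen with earlier results of these data known. Named are all members, their pairs with each other and with the B genes, called pairs, and among the 3 highest and 3 lowest partners of each those given; further genes were chosen after their values were seen. By the labels' plate numbers, groups share plates. Deviations of cells and no-RT wells of a plate correlated between -0.19 and 0.05, and those of the Pax5 and B gene negative classes between 0.03 and 0.19.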

Additional observations from a re-analysis of the deposited data

Results flagged for a closer look

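In 68 groups of 4 plates or wells, 8 had a value far from the other 3 by Dixon's criterion. Its chance rate of about 1 in 20 groups is for continuous values. That rate does not hold for shares of rare genes, where 1 cell can set the flag. The median Cd5 level of P3 was 9.14, below the 10.53 to 10.79 of the other plates. The log2 odds ratio of TCF with Pax5 was 4.65 on P2, where all 3 TCF cells had Pax5, and 0.40 to 1.02 elsewhere. The Notch1 level of the 10-cell well of P0 was 0.0393, against 14.50 to 17.30 in the other 10-cell wells. CD90.2 was detected in 42.9% of the Pax5 cells of P2 and in 22.7% to 24.0% of those of the other plates. The remaining values rest on 0 or 1 cell each: Cd8a in 7.69% of P3 cells with Ebf1 or Ly6d only and in 4.55% of P1 cells with Pax5, TCF in 4.55% of P1 cells with Ebf1 or Ly6d only, and TCF in 0% of P2 cells with Ebf1 and Ly6d but no Pax5.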

How the results depend on the processing

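The 1 called pair with a member became 50 pairs without quality control of cells, 19 with a pseudocount of 1, 14 and 15 with cells split by number of assays and by reference Ct, 4 with genes in 10% to 90% of cells and 2 with plates centred. Over the panel, 21.8% of pairs were called without quality control, 9.18% with a pseudocount of 1, and 7.99% and 8.59% with the splits. Leaving out 1 plate gave 0 to 2 member pairs and 0.327% to 2.78% of panel pairs (lowest without P1, highest without P2). For detection by B gene class, the 1 called member became 2 without quality control (45.9% of all assays), 0 on untransformed shares (28.8%) or against all cells without Pax5 (36.5%), and 0 to 1 without 1 plate (20.8% to 33.3%). For level by class, medians called 1 member and 35.6% of assays, all cells without Pax5 10.9%, and leaving out 1 plate 2.17% to 20.0% (lowest without P3). The exact no-RT limit left 1 member and 53.4% of assays. Some uncalled values changed sign. Cd4 with TCF turned to 0.48 (pseudocount 1) and 0.49 (either split), Cd5 with Gata3 to 0.10, 0.25 and 0.15 (pseudocount 1, split by number, split by Ct), and Ly6d with TCF to -0.0538 (split by number). Without 1 plate, Cd4 with TCF ran from -0.48 to 0.15, Ebf1 with TCF from -0.99 to 0.24, Gata3 with Ly6d from -0.70 to 0.24, Gata3 with TCF from -0.0544 to 1.17, Ly6d with TCF from -0.20 to 0.65 and the TCF class difference (arcsine scale) from -0.0585 to 0.12. The causes were not tested. With the plate as a replicate block, 6 members and 83.0% of assays were above no-RT wells. Without the block by class, 1 member was called for detection and 0 for level, so the pairing changed no count of members called. A transcript below an assay's sensitivity, which is not known, counts as absent.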
